A study of Mus musculus with 21 samples.

Results

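Levels are described here for 38 genes of the cell cycle and mitosis, chosen by symbol from the genes known to work in cell division, out of 24054 rows of the expression table of mouse left ventricle. Expression was measured by sequencing of total RNA from 21 C57BL/6J mice, with 1 library per mouse. Of these, 5 mice had transverse aortic constriction (TAC, a band that narrows the aorta and loads the left ventricle with pressure) and the PDE5A inhibitor sildenafil (TAC+PDE5A-I). Another 6 had TAC and the PDE9A inhibitor PF-04449613 (TAC+PDE9A-I), 5 had TAC with no drug (TAC), and 5 had sham surgery with no drug (sham). The inhibitors, which block the breakdown of cyclic GMP, were given for 4 weeks beginning 1 week after surgery. The labels name no transgene or mutation and give no sex, age, drug dose or vehicle. The design sets overload against sham, and each inhibitor under overload against overload alone.

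A dividing cell passes through G1, where D-type cyclins act, into S phase, where the MCM helicase and PCNA take part in copying the DNA. It then enters mitosis, which cyclin B with Cdk1, the Polo-like and Aurora kinases, the kinetochore and the spindle motors carry out. Most genes of the mitotic phase are switched on together late in the cycle through a promoter element named CHR and the CCAAT boxes near it, whereas genes of S phase are switched on earlier through E2F sites. Adult mouse cardiomyocytes seldom divide, and fibroblasts, endothelial cells and immune cells of the same ventricle can. In RNA of a whole ventricle, fewer cells of a type and less RNA per cell cannot be told apart.

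All 38 genes had a row in the table, and all 38 passed the filter on low counts that left 14135 genes for testing. The libraries held 22.67 to 40.99 M expected counts, and levels are given as TMM-scaled counts per M (CPM). At these depths 3 counts correspond to 0.0781 to 0.135 CPM, a floor for counting error only, and the lowest value among these genes, 0.0770 CPM of Plk1 in TAC+PDE9A-I library 2, lies below that floor. The Rn45s share of the counts was 0.326% and 0.416% in TAC+PDE9A-I libraries 1 and 4 and at most 0.278% in the other 19 libraries. As a check of the labelled tissue, 8 cardiomyocyte markers were found in every library and summed to 41670 CPM or more in each. The numbers of the animals' ear tags begin with 1, 5 or 6, these are spread unevenly over the groups, and values within 1 leading digit are given beside the called genes.

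The promoters of 30 of the 38 genes were found in the RefSeq table (GRCm38.p6, 250 bases before to 50 bases after the start). CHR letters (TTTGAA or TTCGAA, on either strand) were in 18 of these 30 promoters, against 21.7% of the promoters of 27025 genes. CCAAT boxes (CCAAT, either strand) were in 24 of 30, against 41.1% of all promoters, and E2F letters (the letters TTCCCGC, or with a different core the letters TTCGCGC, the letters TTGCCGC or else the letters TTGGCGC, on either strand) were in 10 of 30, against 10.9%. Genes of the mitotic phase other than Cenpf held CHR letters in 15 of 19 promoters and E2F letters in 5 of 19, whereas genes of replication held CHR letters in 2 of 8 and E2F letters in 5 of 8. CCAAT boxes were common in both sets, in 16 of 19 mitotic and 7 of 8 replication promoters. A match is a description of the letters and not a measured site. Stretches of 150 bases, the last 140 bases before the RefSeq start and the first 10 after it, are shown for Cenpf, which is described apart, for 3 mitotic genes whose levels moved together, and for the called replication gene Mcm6. Capitals mark the 3 motifs, of which ATTGG and TTCAAA are CCAAT and TTTGAA read on the other strand, and overlapping E2F matches on opposite strands run together as TTGGCGCGAA. All 5 genes lie on the minus strand, at chr1:189688077-189688226 for Cenpf, chr11:99024180-99024329 for Top2a, chr10:69352903-69353052 for Cdk1, chr9:70421545-70421694 for Ccnb2 and chr1:128359696-128359845 for Mcm6.
Cenpf: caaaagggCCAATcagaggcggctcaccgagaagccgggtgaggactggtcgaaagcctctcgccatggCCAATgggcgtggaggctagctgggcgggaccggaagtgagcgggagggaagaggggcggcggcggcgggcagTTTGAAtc
Top2a: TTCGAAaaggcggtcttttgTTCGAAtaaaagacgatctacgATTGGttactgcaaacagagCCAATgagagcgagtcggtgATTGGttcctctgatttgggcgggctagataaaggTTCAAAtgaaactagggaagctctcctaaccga
Cdk1: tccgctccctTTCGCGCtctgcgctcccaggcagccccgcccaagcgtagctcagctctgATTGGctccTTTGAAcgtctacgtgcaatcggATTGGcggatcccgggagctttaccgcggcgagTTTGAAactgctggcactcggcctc
Ccnb2: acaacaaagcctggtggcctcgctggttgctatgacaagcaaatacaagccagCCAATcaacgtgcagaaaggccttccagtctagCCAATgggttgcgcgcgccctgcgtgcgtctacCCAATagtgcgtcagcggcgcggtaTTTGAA
Mcm6: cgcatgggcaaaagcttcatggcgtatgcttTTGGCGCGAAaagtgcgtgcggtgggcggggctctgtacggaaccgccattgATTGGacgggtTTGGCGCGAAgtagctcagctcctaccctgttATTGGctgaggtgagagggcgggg
The Cenpf stretch carries CCAAT boxes from positions -132 and -71 and CHR letters from position 3 after the start, and the Ccnb2 stretch carries CHR letters from position 5. Cenpf shares CHR letters with 15 of the 19 other mitotic promoters, and its levels, given further on, were unlike theirs. The mitotic genes Birc5, Ccnb1, Cenpe and Nusap1 held no CHR letters in these promoters. Their levels still moved with those of the other mitotic genes, with a median r of 0.797, 0.835, 0.862 and 0.836, described further on.

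Overload left most of the 38 genes uncalled. In TAC against sham, 4 of 38 genes passed an adjusted p under 0.05 in edgeR's quasi-likelihood test with Benjamini-Hochberg adjustment over all 14135 genes, where 25.2% of all genes passed. Of these, 3 of 38 were higher in TAC, against 12.2% of all genes, and they were the mitotic kinase Aurka, the centromeric histone Cenpa and the replicative helicase subunit Mcm6. The 1 lower gene was Cenpf, against 13% of all genes called lower. The groups did not overlap for 3 of 38 genes (Aurka, Cenpa and Cenpf), against 16.5% of all genes. Leaving Cenpf out, 29 of 37 log2 fold changes were above 0 with a median of 0.22, beside a median of -0.0013 over all genes tested. That median moved with single libraries: it was 0.094 without TAC library 4 (26 of 37 above 0), 0.13 without sham library 4, 0.37 without sham library 5 and 0.38 without TAC library 2 (35 of 37 above 0).

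Neither inhibitor group had a called member against TAC. In TAC+PDE5A-I against TAC, 0 of 38 genes were called by edgeR and 0 by DESeq2, where 0.0141% and 0.0566% of all genes were called. An unadjusted p under 0.05 in edgeR was found for 3 of 38 (Kif23, Ect2 and Ccnb2). For TAC+PDE9A-I against TAC, 0 of 38 were called by edgeR and 0 by DESeq2, where 0.00707% and 0.238% of all genes were called. There 1 of 38 had an unadjusted p under 0.05 in edgeR (Cenpf), and 0 of 38 did not overlap, against 0.509% of all genes. Between TAC+PDE5A-I and TAC+PDE9A-I, 0 of 38 were called by edgeR and 0 by DESeq2, where 0.00707% and 0.248% of all genes were called. Here 1 of 38 had an unadjusted p under 0.05 in edgeR (Kif20a), and 0 of 38 did not overlap, against 0.757% of all genes. Without Cenpf, 34 of 37 fold changes of TAC+PDE5A-I against TAC+PDE9A-I were above 0, with a median of 0.34, beside -0.0058 over all genes tested. In the alternative runs 31 to 36 of 37 were above 0, with medians from 0.21 to 0.66. Both inhibitor groups were set against the same TAC libraries, so their values are given side by side only. Without Cenpf, the median log2 fold change over 37 genes was 0.34 in TAC+PDE5A-I and -0.030 in TAC+PDE9A-I, each against TAC, beside -0.0031 and 0.0048 over all genes tested. The TAC+PDE5A-I median was 0.22 without TAC library 2 and 0.53 without TAC library 4, and above 0 in every alternative run. The TAC+PDE9A-I median had no stable direction: 11 of 37 fold changes were above 0 with all libraries, 6 without TAC library 2 (median -0.18), and 24 without TAC+PDE9A-I library 6 (median 0.064). The median was also above 0 without TAC library 4 (0.061) or TAC+PDE9A-I library 5 (0.048), and lay from -0.11 to -0.0060 when any 1 of the other libraries was left out.

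**Figure D1:**
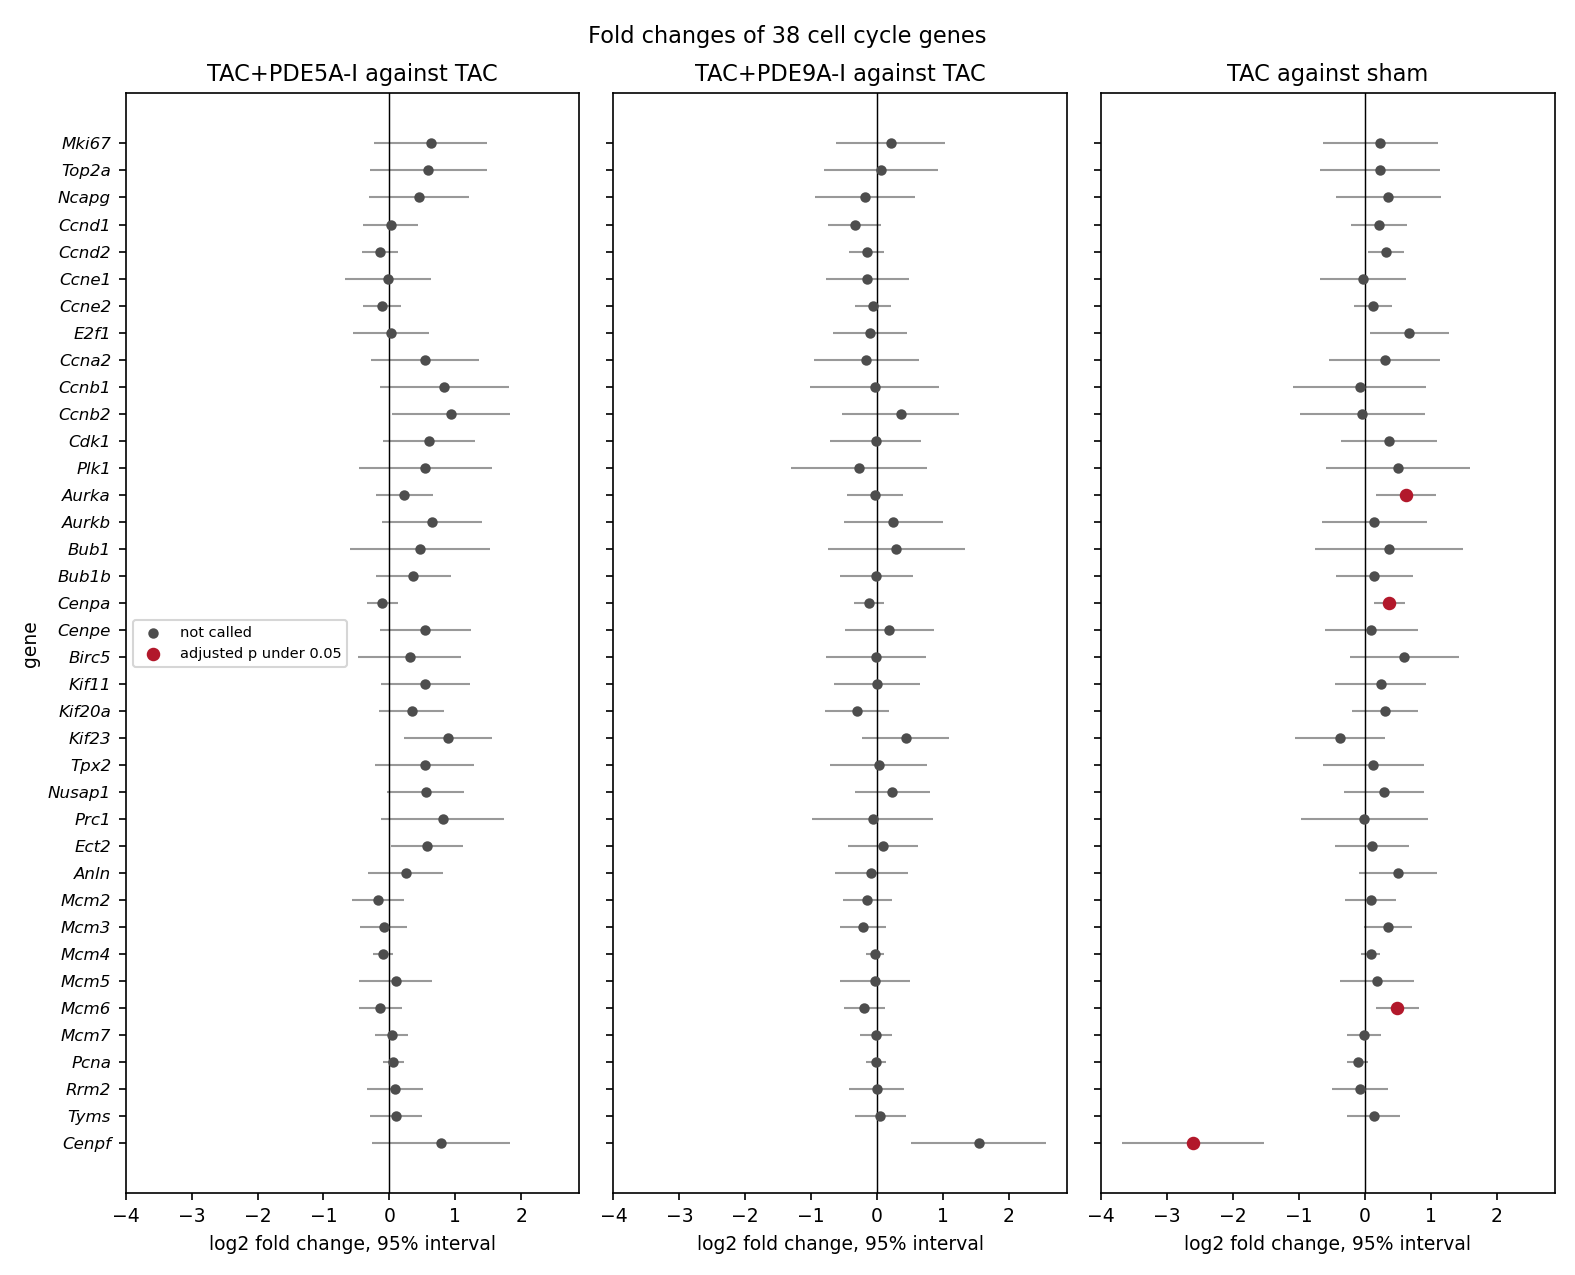
Log2 fold change (horizontal axis, points) with 95% interval (lines) of each of 38 genes, in rows by role with Cenpf last, for TAC+PDE5A-I against TAC, TAC+PDE9A-I against TAC and TAC against sham. Red points passed an adjusted p of 0.05, which only Aurka, Cenpa, Mcm6 and Cenpf did, in TAC against sham; most mitotic genes lie to the right of 0 in TAC+PDE5A-I against TAC, with intervals that mostly include 0.

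Mki67 encodes the proliferation antigen of dividing cells, Top2a the topoisomerase that untangles sister chromosomes, and Ncapg a condensin subunit. None was called in any of the 6 comparisons. Mki67 was at 17.97, 21.02, 27.6, 25.6 and 20.03 CPM in TAC+PDE5A-I, had a lowest of 6.37, a median of 13.8 and a highest of 30.7 CPM in TAC+PDE9A-I, and was at 17.5, 4.36, 16.5, 21.9 and 12.3 CPM in TAC and 8.66, 10.8, 8.71, 8.97 and 24.8 CPM in sham. Top2a was at 8.85, 11.3, 16.8, 13.9 and 9.97 CPM in TAC+PDE5A-I, had a lowest of 2.47, a median of 8.24 and a highest of 14.7 CPM in TAC+PDE9A-I, and was at 10.3, 2.02, 8.12, 12.8 and 6.74 CPM in TAC and 5.899, 6.17, 4.95, 4.86 and 12.6 CPM in sham. The TAC+PDE5A-I libraries lay close together and above 4 of 5 sham libraries for both genes, sham library 5 stood high, TAC library 2 stood low, and all groups overlapped. Mki67 differed by 0.62 on the log2 scale (SE 0.41, adjusted p = 0.962) in TAC+PDE5A-I against TAC and by 0.24 (adjusted p = 0.705) in TAC against sham, in edgeR. Means of Mki67 were 22.5 ± 4.02 CPM in TAC+PDE5A-I, 16.7 ± 9.91 CPM in TAC+PDE9A-I, 14.5 ± 6.62 CPM in TAC and 12.4 ± 7.002 CPM in sham (SD, n = 5, 6, 5 and 5). Ncapg was near 1 CPM, with group means from 0.752 to 1.31 CPM.

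The mitotic cyclins Ccna2, Ccnb1 and Ccnb2 switch on Cdk1, the kinase that starts mitosis, Plk1 and Aurka build the spindle poles, and Aurkb corrects wrong attachments of chromosomes. Aurka was the called member of these 7. Aurka was at 1.07, 1.46, 1.72, 1.57 and 1.18 CPM in TAC+PDE5A-I, had a lowest of 0.916, a median of 1.07 and a highest of 1.66 CPM in TAC+PDE9A-I, and was at 1.202, 1.17, 1.06, 1.41 and 1.11 CPM in TAC and 0.756, 0.736, 0.894, 0.451 and 1.05 CPM in sham. Every TAC and every TAC+PDE5A-I library lay above every sham library, and the TAC+PDE9A-I libraries overlapped with sham. The margin was small: the lowest TAC and TAC+PDE5A-I libraries were at 1.059 and 1.072 CPM, and the highest sham library was at 1.045 CPM. Aurka was higher by 0.63 (SE 0.22, adjusted p = 0.0401, higher in 5 of 5 TAC libraries) in TAC against sham and by 0.86 (SE 0.21, adjusted p = 0.0165) in TAC+PDE5A-I against sham, in edgeR. Within ear tags beginning with 1 and 6, the log2 ratio of Aurka in TAC over sham was 0.58 and 0.75. The TAC against sham call was lost with the ear tag term (adjusted p = 0.0629) and without a filter on low counts (adjusted p = 0.0543), and held in 4 of 10 fits that left out 1 library each. The TAC+PDE5A-I against sham call was lost with the ear tag term (adjusted p = 0.0820) and without TAC+PDE5A-I library 4 (adjusted p = 0.0508), and held in 9 of 10 such fits. In TAC+PDE9A-I against sham its log2 fold change was 0.59 (adjusted p = 0.0906), which was not called.

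Cdk1 was at 1.79, 2.66, 3.14, 2.74 and 1.88 CPM in TAC+PDE5A-I, had a lowest of 0.756, a median of 1.83 and a highest of 2.16 CPM in TAC+PDE9A-I, and was at 1.92, 0.629, 1.41, 2.53 and 1.44 CPM in TAC and 1.17, 1.23, 1.01, 0.717 and 2.13 CPM in sham. Ccna2 was at 2.803, 3.93, 4.597, 4.42 and 3.12 CPM in TAC+PDE5A-I, had a lowest of 1.12, a median of 2.33 and a highest of 4.09 CPM in TAC+PDE9A-I, and was at 3.71, 0.539, 2.09, 3.91 and 2.62 CPM in TAC and 1.66, 1.82, 1.83, 1.33 and 3.95 CPM in sham. Ccnb1 was at 0.6596, 1.41, 2.04, 1.71 and 1.15 CPM in TAC+PDE5A-I, had a lowest of 0.239, a median of 0.903 and a highest of 1.14 CPM in TAC+PDE9A-I, and was at 0.996, 0.225, 0.706, 1.25 and 0.655 CPM in TAC and 0.529, 0.876, 0.559, 0.372 and 1.82 CPM in sham. For all 3 genes TAC library 2 was the lowest TAC library and sham library 5 the highest sham library, and all groups overlapped. All 7 genes had a fold change above 0 in TAC+PDE5A-I against TAC, from 0.23 for Aurka to 0.93 for Ccnb2, and none was called. The value for Ccnb2, 0.93 (95% interval 0.034 to 1.84, adjusted p = 0.947 in edgeR), was among the 3 with an unadjusted p under 0.05. In TAC+PDE9A-I against TAC, 2 of 7 were above 0, with a median of -0.036, which ran from -0.21 without TAC library 2 to 0.21 without TAC library 4. Part of the Ccna2 exons, 12.5% of their length, also belongs to Exosc9 on the other strand, and the sources used here give no strand setting for the counting.

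Bub1 and Bub1b hold back chromosome separation until every kinetochore is attached, Cenpa marks the centromere, Cenpe is a kinetochore motor, and Birc5 belongs to the complex of Aurkb. Cenpa was the called member among these 5. Cenpa was at 17.8, 18.9, 22.1, 20.3 and 20.2 CPM in TAC+PDE5A-I, had a lowest of 16.03, a median of 19.1 and a highest of 25.3 CPM in TAC+PDE9A-I, and was at 22.6, 20.5, 20, 25.2 and 18.6 CPM in TAC and 18.1, 15.1, 15.2, 17.7 and 16.7 CPM in sham. All TAC libraries lay above all sham libraries, and both inhibitor groups overlapped with sham. Cenpa was higher in TAC by 0.37 (SE 0.11, adjusted p = 0.0236 in edgeR), with means of 21.4 ± 2.57 CPM in TAC and 16.6 ± 1.396 CPM in sham (SD, n = 5 each). Its log2 ratios in TAC over sham within ear tags beginning with 1 and 6 were 0.42 and 0.35, and the call held in 9 of 10 fits that left out 1 library each, with the loss without TAC library 4 (0.31, adjusted p = 0.0724). The coefficient of variation of Cenpa was 8.15% in TAC+PDE5A-I, 18.7% in TAC+PDE9A-I, 12.02% in TAC and 8.44% in sham. Over the 22 other mitotic genes without Cenpf, the median coefficient of variation was 24.3%, 47.6%, 45.8% and 44.1% in the same groups, and a lower one than that of Cenpa was found for 1 gene in TAC (Aurka) and for 0 in each of the other groups. Against the lowest of the others the gap was small in TAC+PDE9A-I (18.8% for Kif20a).

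Kif11, Kif20a and Kif23 are spindle and midbody motors, Tpx2, Nusap1 and Prc1 bundle or nucleate microtubules, and Ect2 and Anln shape the cleavage furrow. None of these 8 was called in any comparison. Kif23 and Nusap1 were the 2 of 38 genes without overlap between TAC+PDE5A-I and TAC, where 0.99% of all genes did not overlap. Kif23 was at 2.06, 2.63, 3.83, 2.85 and 1.88 CPM in TAC+PDE5A-I, had a lowest of 0.836, a median of 1.71 and a highest of 3.34 CPM in TAC+PDE9A-I, and was at 1.55, 0.494, 1.73, 1.87 and 1.41 CPM in TAC and 1.74, 1.997, 1.94, 1.22 and 2.44 CPM in sham. Nusap1 was at 2.199, 2.11, 3.43, 2.49 and 2.14 CPM in TAC+PDE5A-I, had a lowest of 1.12, a median of 1.8 and a highest of 3.06 CPM in TAC+PDE9A-I, and was at 2.06, 0.539, 1.798, 2.07 and 1.87 CPM in TAC and 1.21, 1.296, 1.19, 1.27 and 1.94 CPM in sham. In both genes the lowest TAC+PDE5A-I library lay just above the highest TAC library, and TAC library 2 was the lowest of TAC by a wide margin. Kif23 differed by 0.89 (SE 0.32, 95% interval 0.21 to 1.56) and Nusap1 by 0.55 (SE 0.28, 95% interval -0.036 to 1.14), with adjusted p = 0.947 and 0.962 in edgeR. All 8 were above 0 in TAC+PDE5A-I against TAC, with a median of 0.55 (0.36 without TAC library 2), and 4 of 8 in TAC+PDE9A-I against TAC, with a median of 0.013 that was 0.30 without TAC library 4 and -0.37 without TAC+PDE9A-I libraries 1 and 4. Kif20a, the motor of the central spindle, averaged 3.59 ± 1.04 CPM in TAC+PDE5A-I and 2.29 ± 0.4301 CPM in TAC+PDE9A-I (SD, n = 5 and 6), a log2 difference of 0.64 (95% interval 0.16 to 1.12, adjusted p = 0.361 in edgeR). Of its exon length, 29.3% is shared with Cdc23 on the other strand.

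**Figure D2:**
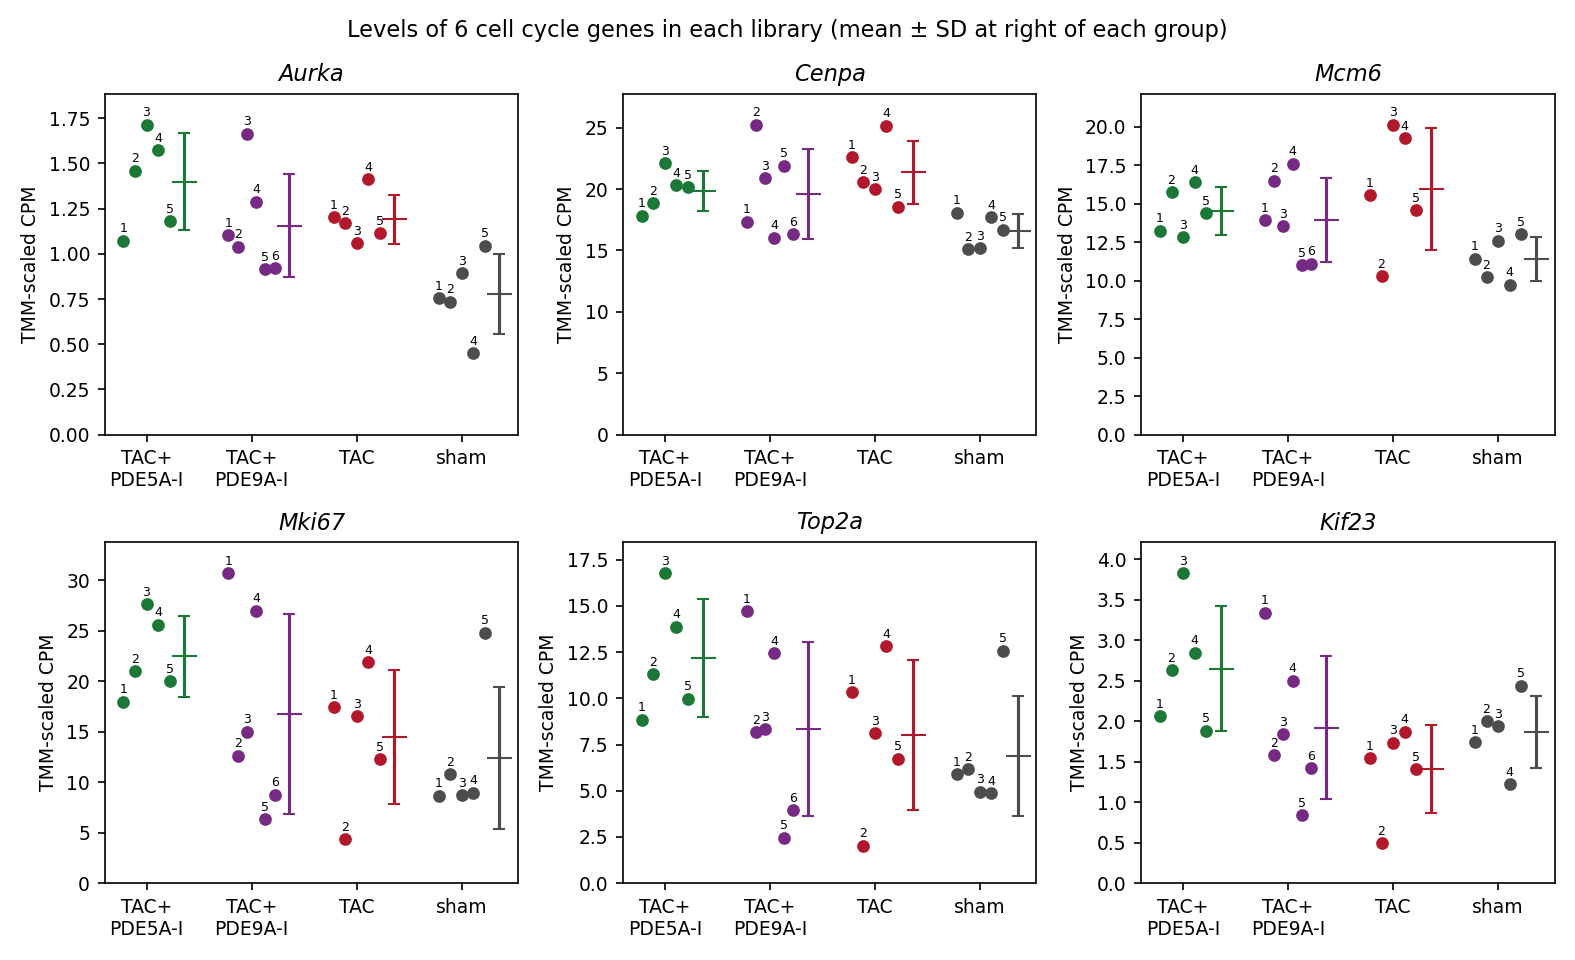
TMM-scaled CPM (vertical axis, from 0) of Aurka, Cenpa, Mcm6, Mki67, Top2a and Kif23 in each library, with groups in the order TAC+PDE5A-I, TAC+PDE9A-I, TAC and sham on the horizontal axis. Points are libraries with their replicate number and the bars show mean ± SD. Every TAC point of Aurka and Cenpa lies above every sham point, for Aurka only just, and sham library 5 stands apart for Mki67 and Top2a.

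The D-type cyclins Ccnd1 and Ccnd2 pair with Cdk4 and Cdk6 in G1, the E-type cyclins Ccne1 and Ccne2 pair with Cdk2 at the start of S phase, and E2f1 is a transcription factor of S-phase genes. None of these 5 was called in any comparison. Ccnd1 was at 89.2, 108, 119, 132 and 72.6 CPM in TAC+PDE5A-I, had a lowest of 52.3, a median of 84.4 and a highest of 106 CPM in TAC+PDE9A-I, and was at 123, 57.2, 115, 123 and 96.99 CPM in TAC and 87.9, 95.8, 79.8, 74.6 and 105 CPM in sham. Ccnd2 was at 213, 202, 255, 285 and 266 CPM in TAC+PDE5A-I, had a lowest of 175, a median of 239 and a highest of 296 CPM in TAC+PDE9A-I, and was at 319, 234, 311, 254 and 232 CPM in TAC and 238, 233, 191, 232 and 186 CPM in sham. Ccne1 was at 1.26, 1.93, 1.75, 1.68 and 0.646 CPM in TAC+PDE5A-I, had a lowest of 0.606, a median of 1.36 and a highest of 2.12 CPM in TAC+PDE9A-I, and was at 1.31, 1.08, 1.89, 1.54 and 1.51 CPM in TAC and 1.93, 1.54, 1.79, 1.25 and 1.01 CPM in sham. Groups overlapped for all 3. Ccnd2 differed by 0.32 (SE 0.13, adjusted p = 0.0797) and E2f1 by 0.68 (SE 0.29, adjusted p = 0.0860) in TAC against sham in edgeR, and neither was called. Both passed without TAC library 2, as did Mcm3, and with the libraries of TAC and sham alone, and Ccnd2 also passed without TAC library 5. Per kb of exon, Ccnd2 was the most abundant of the 38 genes, at 25.96 CPM per kb in TAC+PDE5A-I, 25.7 CPM per kb in TAC+PDE9A-I, 28.7 CPM per kb in TAC and 22.97 CPM per kb in sham, and Ccnd1 the next. For Ccnd1 and Ccne2, 23.4% and 17.4% of the exon length is shared with a gene on the other strand.

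Mcm2 to Mcm7 form the helicase that opens DNA at replication origins, Pcna is the sliding clamp, and Rrm2 and Tyms make deoxynucleotides. Mcm6 was the called member of these 9. Mcm6 was at 13.3, 15.8, 12.8, 16.4 and 14.4 CPM in TAC+PDE5A-I, had a lowest of 10.99, a median of 13.7 and a highest of 17.6 CPM in TAC+PDE9A-I, and was at 15.53, 10.3, 20.1, 19.3 and 14.6 CPM in TAC and 11.4, 10.2, 12.6, 9.74 and 13.01 CPM in sham. TAC libraries 3 and 4 were highest, TAC library 2 lay within the sham range, and the groups overlapped. Mcm6 was higher in TAC by 0.49 (SE 0.16, adjusted p = 0.0291 in edgeR, above the highest sham library in 4 of 5 TAC libraries). Its log2 ratios in TAC over sham within ear tags beginning with 1 and 6 were 0.18 and 0.57. The call was lost with the ear tag term (adjusted p = 0.0686) and held in 5 of 10 fits that left out 1 library each.

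Mcm2 was at 9.701, 13.8, 8.28, 9.38 and 7.64 CPM in TAC+PDE5A-I, had a lowest of 7.71, a median of 8.83 and a highest of 14.9 CPM in TAC+PDE9A-I, and was at 11.4, 7.501, 12.7, 10.1 and 13.2 CPM in TAC and 11.5, 10.96, 7.895, 10.9 and 10.6 CPM in sham. Pcna was at 31.3, 37.9, 34.4, 31.7 and 32.4 CPM in TAC+PDE5A-I, had a lowest of 27.7, a median of 31.4 and a highest of 35.3 CPM in TAC+PDE9A-I, and was at 33.4, 27.7, 30.9, 34.03 and 35.2 CPM in TAC and 33.3, 39.4, 35.4, 33.1 and 32.8 CPM in sham. Groups overlapped for both genes, and Pcna stayed within 27.7 to 39.4 CPM in all 21 libraries. The log2 fold changes of the 9 genes in TAC against sham ran from -0.11 for Pcna to 0.49 for Mcm6, with a median of 0.090 (0.21 without TAC library 2, 0.051 without TAC library 3). Under sildenafil (TAC+PDE5A-I against TAC) the median was 0.036 (-0.10 without TAC library 2) and the highest value 0.10, beside medians of 0.60 for the 7 mitotic cyclins and kinases and 0.55 for the 8 spindle and cytokinesis genes. For Mcm7, 12.6% of the exon length is shared with other annotated genes. The table also holds a row for the pseudogene Tyms-ps, and the sources used here do not say how reads were split between it and Tyms.

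Set against sham, most fold changes of the sildenafil group lay above 0 and few were called. In TAC+PDE5A-I against sham, 2 of 38 genes were called, where 14.6% of all genes were called: Aurka was higher, against 6.81% of all genes, and Cenpf lower, against 7.8%. Groups did not overlap for 3 of 38 (Aurka, E2f1 and Nusap1), against 15.6% of all genes. Without Cenpf, 33 of 37 fold changes were above 0 with a median of 0.66, beside -0.0018 over all genes, and 14 of 37 had an unadjusted p under 0.05. The number of called members depended on the fit, as did the number over all genes. Called members were 0 of 38 with the ear tag term (1.95% of all genes) and 0 of 38 without TAC+PDE5A-I library 4 (580 genes called in all). With the libraries of these 2 groups alone 13 of 38 were called (24.8% of all genes), and with DESeq2 7 of 38 (19.9% of all genes). Without sham library 5 it was 9 of 38, with 2042 genes called in all, beside 2066 with every library. In TAC+PDE9A-I against sham, 0 of 38 were called by edgeR and 0 by DESeq2, where 3.82% and 11% of all genes were called. An unadjusted p under 0.05 in edgeR was found for 3 of 38 (Aurka, Cenpa and Cenpf). In this comparison 0 of 38 did not overlap, against 3.47% of all genes, and the median of 37 was 0.17. That median was 0.39 without sham library 5, 0.27 and 0.28 without TAC+PDE9A-I library 5 or 6, 0.10 without sham library 4, 0.11 and 0.087 without TAC+PDE9A-I library 1 or 4, and -0.0050 without TAC+PDE9A-I libraries 1 and 4, the 2 with the highest Rn45s share. The difference between the inhibitor groups was tested directly, with no call; for Mki67 it was 0.42 (95% interval -0.40 to 1.24) and for Cdk1 0.62 (95% interval -0.045 to 1.29), TAC+PDE5A-I against TAC+PDE9A-I.

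**Figure D3:**
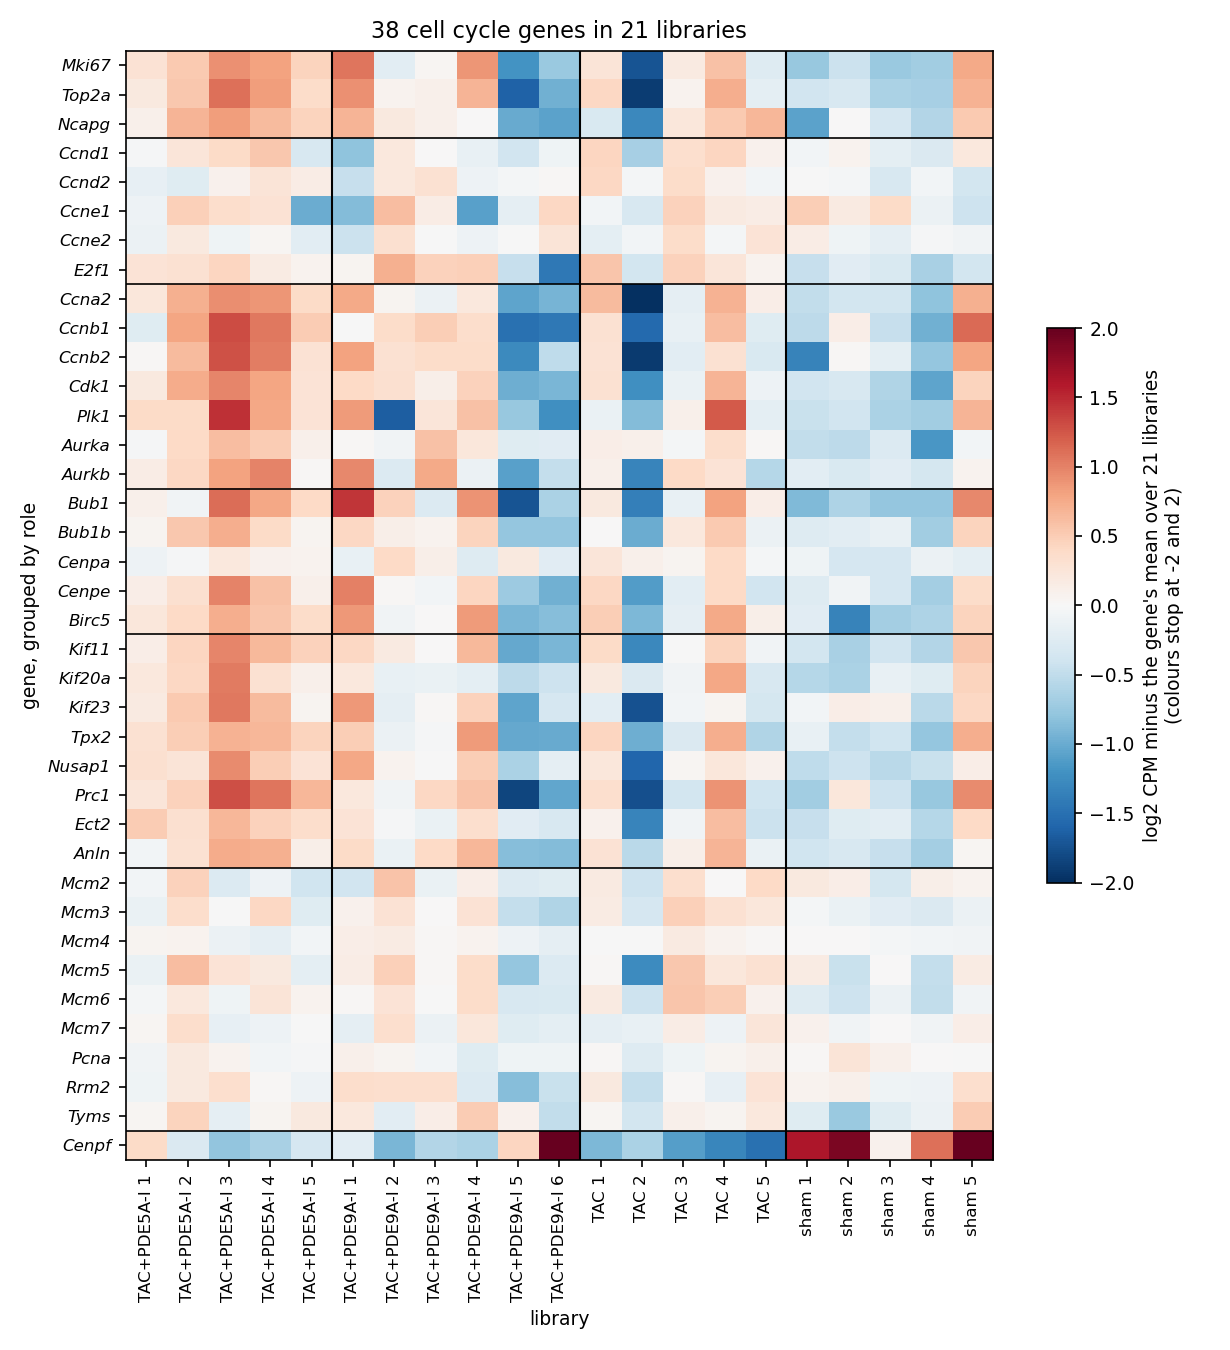
Log2 CPM of 38 genes (rows, by role, Cenpf last) in 21 libraries (columns, in the order TAC+PDE5A-I, TAC+PDE9A-I, TAC and sham) minus the mean of each gene over all libraries; red is higher and blue lower. Mitotic genes share columns of 1 colour, such as TAC+PDE5A-I 3 in red and TAC 2 in blue, while Cenpf is red in the sham columns and in TAC+PDE9A-I 6.

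The mitotic genes varied together from animal to animal within groups. Over 23 mitotic genes without Cenpf, the median Pearson r of all pairs was 0.82 (lowest -0.14, highest 0.98) between deviations of log2 CPM from the group means in 21 libraries, given as a description since the libraries and their scaling are shared. Over the 9 replication genes the median was 0.49. Among the 23 genes, sham library 5 was the highest sham library for 22, TAC library 4 the highest and TAC library 2 the lowest TAC library for 20 each, TAC+PDE5A-I library 3 the highest of its group for 22, and TAC+PDE9A-I library 5 the lowest of its group for 17. Mean log2 CPM over the 23 genes ran from 1.16 to 1.94 in TAC+PDE5A-I, 0.062 to 1.602 in TAC+PDE9A-I, -0.19 to 1.59 in TAC and 0.35 to 1.51 in sham.

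Mki67 and Top2a, the pair with the highest r, moved together with r = 0.975 and Spearman's rho = 0.962 (n = 21, permutation p = 1e-05 for each, the smallest that 100000 draws can give; 3e-05 adjusted over 3 pairs). Without sham library 5 and TAC library 2, r was 0.966. Within ear tags beginning with 1, 5 and 6, r was 0.989, 0.950 and 0.981 (n = 6, 7 and 8, exact permutation p = 0.00278, 0.00139 and 2.48e-05). These p-values take no account of how the pair was chosen, with earlier results of these data known. Both genes share libraries and scaling, and the ear tag values come from the same 21 libraries. Cenpa, with a median r of 0.091 with the mitotic genes, Ccnd2 (-0.047), Ccne1 (-0.11) and Ccne2 (-0.21) did not share this pattern. The pattern was not limited to mitotic genes. Mcm6 (0.689), Rrm2 (0.673), Mcm5 (0.661), Mcm3 (0.654) and E2f1 (0.567) had a higher median r with them than the mitotic gene Aurka (0.53). Tyms (0.452), Ccnd1 (0.438), Mcm4 (0.297), Pcna (0.297), Mcm2 (0.233) and Mcm7 (0.202) had a lower one.

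**Figure D4:**
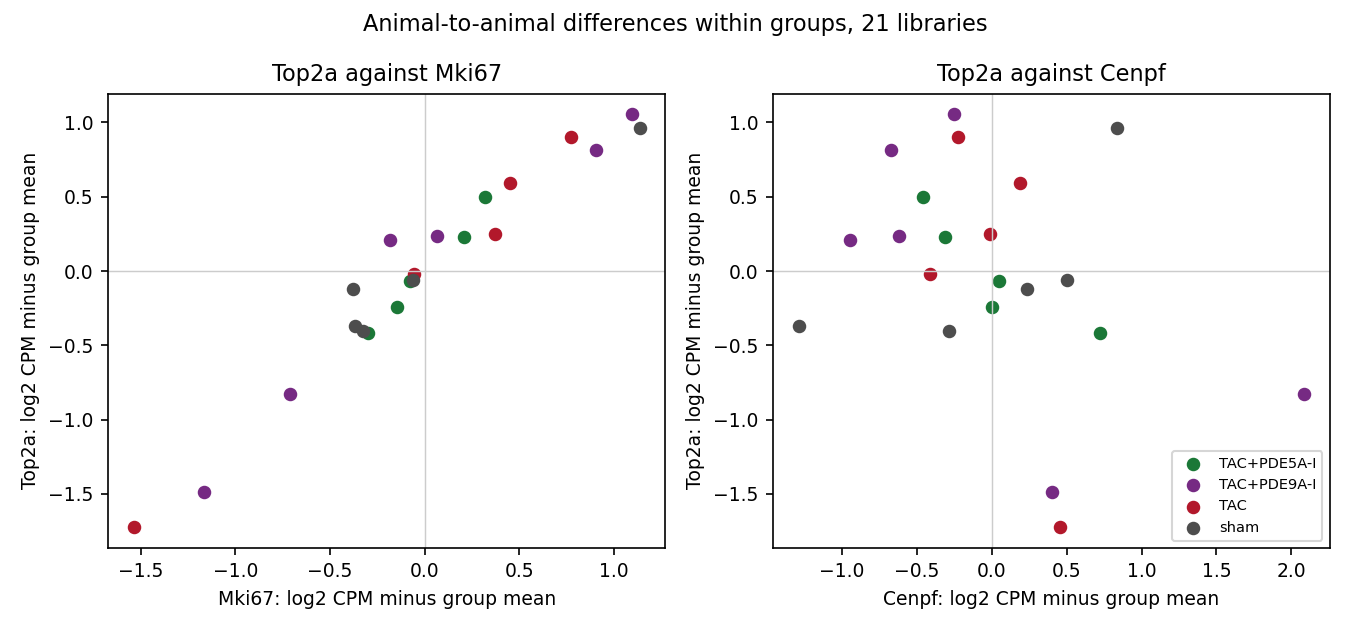
Deviation of Top2a from its group mean (vertical axis, log2 CPM) against that of Mki67 (left) and Cenpf (right) in 21 libraries, coloured by group. The Mki67 points follow a line (r = 0.975), and the Cenpf points do not (r = -0.343).

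Cenpf, which encodes a very large protein of the kinetochore and nuclear envelope, is set apart from the others. It lies at chr1:189640606-189688086 on the minus strand (GRCm38), is protein-coding and has 15433 bp of exon that no other annotated gene overlaps. Cenpf was at 28.9, 18.1, 12.7, 14.1 and 17.5 CPM in TAC+PDE5A-I and had a lowest of 11.7, a median of 16.9 and a highest of 96.5 CPM in TAC+PDE9A-I. It was at 11.9, 14.3, 10.3, 8.902 and 7.79 CPM in TAC and 67.99, 81.6, 23.6, 47.4 and 103 CPM in sham. Every TAC library lay below every sham library, TAC+PDE5A-I lay below 4 of 5 sham libraries, and TAC+PDE9A-I library 6 lay within the sham range while the other 5 ran from 11.7 to 29.9 CPM.

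Cenpf fell in TAC by 2.61 on the log2 scale (SE 0.52, adjusted p = 0.00367 in edgeR, lower in 5 of 5 libraries), with means of 10.6 ± 2.55 CPM in TAC and 64.7 ± 30.6 CPM in sham (SD, n = 5 each). The call held in 10 of 10 fits that left out 1 library each, between -2.82 and -2.38. Within ear tags beginning with 1 and 6 the log2 ratio of TAC over sham was -2.14 and -3.17. In TAC+PDE5A-I Cenpf was lower than in sham by a log2 fold change of -1.82 (SE 0.50, adjusted p = 0.0236 in edgeR). That call was lost with the ear tag term (-1.67, adjusted p = 0.124) and without sham library 1 or TAC+PDE5A-I library 3, 4 or 5 (adjusted p from 0.0508 to 0.0727); within ear tags beginning with 6 the log2 ratio was -2.35.

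**Figure D5:**
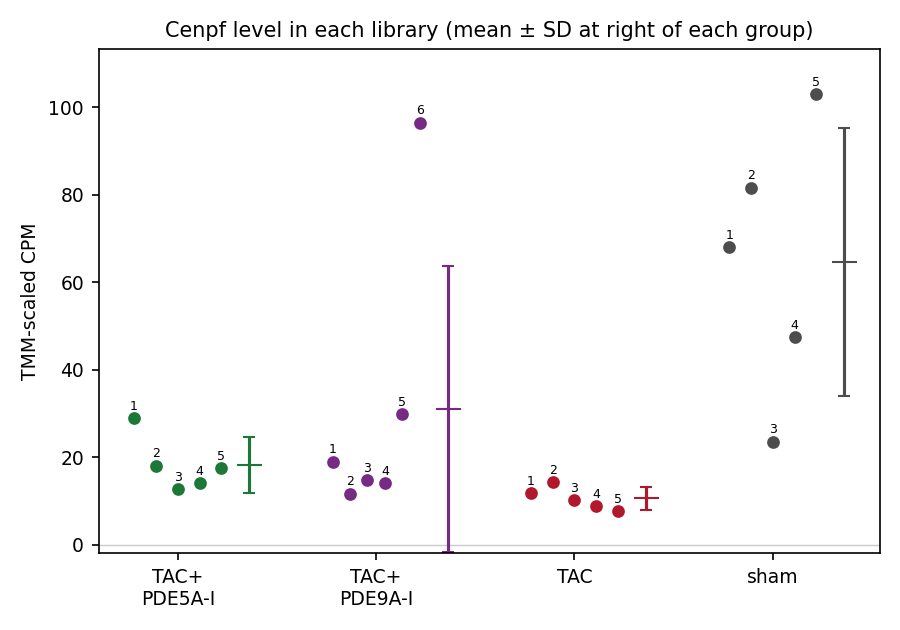
Cenpf level (vertical axis, TMM-scaled CPM) in each library of TAC+PDE5A-I, TAC+PDE9A-I, TAC and sham (horizontal axis); points carry the replicate number and bars show mean ± SD, the lower end of which goes below 0 in TAC+PDE9A-I because of 1 library. TAC libraries lie from 7.79 to 14.3 CPM, below all sham libraries (23.6 to 103 CPM), and TAC+PDE9A-I library 6 stands at 96.5 CPM.

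Under TAC+PDE9A-I, 1 library decided the Cenpf values. Against TAC the log2 fold change was 1.54 (SE 0.49, adjusted p = 0.254 in edgeR), and 0.75 without TAC+PDE9A-I library 6. Against sham it was -1.07 (SE 0.46, adjusted p = 0.146), and -1.85 without that library (adjusted p = 0.00534, called). TAC+PDE5A-I differed from TAC by 0.79 (95% interval -0.26 to 1.83, adjusted p = 0.962) and from TAC+PDE9A-I by -0.76 (95% interval -1.74 to 0.23, adjusted p = 0.606), the second of which turned to 0.032 without library 6. That library also had the highest summed cardiomyocyte markers (91830 CPM, against 59360 to 83750 CPM) and the lowest summed fibroblast markers (1185 CPM, against 1619 to 4386 CPM) of its group. Its level of the myosin heavy chain gene Myh7, 431.7 CPM, was the lowest of its group (highest 9100 CPM, sham 198.3 to 325.6 CPM). Library 5 of that group came next, with Myh7 at 592.3 CPM and Cenpf at 29.9 CPM. Libraries 1 to 4 of TAC+PDE9A-I had Myh7 at 2955, 1747, 9100 and 4401 CPM. Cenpf there was at 19.05, 11.7, 14.7 and 14.2 CPM, in the same order. In TAC+PDE5A-I libraries 1 to 5, Myh7 was at 380.1, 419.8, 3386, 5714 and 6931 CPM. Cenpf in the same libraries was at 28.9, 18.1, 12.7, 14.1 and 17.5 CPM. The part of these markers and of Myh7 in the result was not tested. TAC+PDE9A-I library 6 was the lowest of its group for 4 of the 23 mitotic genes.

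Cenpf did not follow the proliferation genes between animals. Its deviations from the group means had r = -0.257 and rho = -0.238 with Mki67 (permutation p = 0.369 and 0.344, the same after adjustment over 3 pairs) and r = -0.343 and rho = -0.329 with Top2a (permutation p = 0.197 and 0.173, adjusted 0.296 and 0.259). Without sham library 3 and TAC+PDE9A-I library 6, r was -0.240 and -0.356. Within ear tags beginning with 1, 5 and 6, r with Top2a was -0.165, -0.698 and -0.379 (n = 6, 7 and 8, exact permutation p = 0.692, 0.0702 and 0.374), and r with Mki67 was -0.185, -0.524 and -0.268 (exact permutation p = 0.657, 0.230 and 0.527). Per kb of exon, Cenpf stood at 1.183 CPM in TAC+PDE5A-I, 2.01 CPM in TAC+PDE9A-I, 0.689 CPM in TAC and 4.19 CPM in sham, where it ranked 5 of 38. Top2a stood at 1.35, 0.925, 0.889 and 0.765 CPM per kb in the same groups, so Cenpf was above Top2a per kb in sham and below it in TAC.

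Tested genes were ranked by how closely their deviations followed those of Cenpf over the 21 libraries. Predicted genes (symbols of Gm with a number, or holding Rik) and rows with a date were left out of this ranking. Among the genes ranked, those most like Cenpf were Mpped2 (r = 0.871), Nav2 (0.825), Ubxn10 (0.813), Tbx5 (0.812) and Angel1 (0.810). Each r is over all 21 libraries, and its dependence on single libraries was not tested. Tbx5 encodes a transcription factor of heart development, and it fell in TAC by 0.95 on the log2 scale (SE 0.16, adjusted p = 0.00208 in edgeR), to a mean of 12.5 CPM in TAC against 24.1 CPM in sham. Of the others Mpped2 fell by 0.72, Nav2 by 0.42 and Ubxn10 by 1.48 in TAC (adjusted p = 0.0370, 0.0486 and 0.0391 in edgeR), and Angel1 was not called (-0.26).

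Further genes of the cycle were taken from 7 lists of its machinery, and in TAC against sham each list held a smaller share of called genes than the 25.2% of all genes. In TAC against sham, 2 of 30 tested genes of the kinetochore and spindle checkpoint were called, namely Cenpb higher and the cohesin protector Sgol2 lower (-0.74, adjusted p = 0.00984 in edgeR), with a median of 0.15. Of 35 genes of spindle, cytokinesis, condensin and cohesin, 4 were called: the condensin core subunit Smc4 rose (0.38), and the cohesin subunit Rad21 (-0.34), the condensin II subunit Ncapd3 (-0.32) and securin, Pttg1 (-0.46), fell. Of 34 genes of origins, forks and nucleotides, 2 were called, both higher (Orc2 and Chaf1a).

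Among G1 and S regulators, 3 of 19 were called in TAC against sham: E2f3 rose by 0.33, and Cdk2 and Ccnd3 fell by 0.40 and 0.33. Among inhibitors and brakes of the cycle, 2 of 18 were called. The CDK4 and CDK6 inhibitor Cdkn2b was at a mean of 1.27 CPM in TAC and 0.439 CPM in sham, a rise of 1.53 (SE 0.29, adjusted p = 0.00294 in edgeR), and Mdm2 fell by 0.18. Cdkn2b was also higher than in sham by 1.26 in TAC+PDE5A-I and 1.103 in TAC+PDE9A-I (adjusted p = 0.0115 and 0.0382). Among 14 mitotic transcription factors and DREAM genes, 1 was called: Mybl1 rose by 1.36 in TAC (adjusted p = 0.00862). Of 11 tested genes for proteins reported to bind CENP-F, 2 fell (Nup133 and Rhot2).

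In TAC+PDE5A-I against sham, 4 of 30 genes of the kinetochore and checkpoint list were called, near the 14.6% of all genes, and they were all higher (6.81% of all genes): the APC/C activator Cdc20 by 0.98, the NDC80 subunits Spc25 by 1.08 and Nuf2 (named after its values were seen), and the Cenpa loading factor Mis18a by 0.37 (adjusted p = 0.0257, 0.0465 and 0.0397 in edgeR for Cdc20, Spc25 and Mis18a). The median of that list was 0.35. In the spindle and cytokinesis list, with a median of 0.50, 3 of 35 were called: Smc4 rose (0.33), and Rad21 (-0.30) and Ncapd3 (-0.24) fell. Cdc20 differed by 0.94 in TAC+PDE5A-I against TAC and by 1.11 in TAC+PDE5A-I against TAC+PDE9A-I (adjusted p = 0.851 and 0.253 in edgeR), neither of them called.

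Markers of cell types moved with the surgery. In TAC against sham, 5 of 8 cardiomyocyte markers fell (sum 41670 to 73710 CPM in TAC, 83580 to 95400 CPM in sham), and 6 of 7 fibroblast markers rose (2134 to 4148 CPM in TAC, 1091 to 1401 CPM in sham). The 6 macrophage markers summed to 247 to 296 CPM in TAC and 213 to 272 CPM in sham. All 4 tested B cell markers rose and were still low (3.04 to 5.39 CPM in TAC, 1.06 to 2.70 CPM in sham). In TAC+PDE5A-I against sham, 4 of 8 cardiomyocyte markers fell (49390 to 70490 CPM in TAC+PDE5A-I), 3 of 7 fibroblast markers rose (1676 to 3274 CPM) and 3 of 4 B cell markers rose (3.44 to 5.14 CPM). TAC library 4, the highest TAC library for 20 of the 23 mitotic genes, had the highest fibroblast sum of TAC (4148 CPM), and TAC library 2, the lowest for 20, had the lowest (2134 CPM). In TAC+PDE9A-I the match was poorer. Library 6 had the lowest fibroblast sum (1185 CPM) and was the lowest for 4 of the 23 genes, and library 5 was the lowest for 17. Between groups, the median fibroblast sum was lower in TAC+PDE5A-I (2519 CPM) than in TAC (2846 CPM). The mean log2 CPM of the 23 mitotic genes averaged 1.51 in TAC+PDE5A-I and 0.89 in TAC. All 7 endothelial markers lay above 0 in TAC+PDE5A-I against TAC and against TAC+PDE9A-I (medians 0.092 and 0.22), with 0 called. The part of these markers in the levels of Cenpf, Aurka, Cenpa, Mcm6 and the mitotic genes was not tested.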

How the data were processed

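The authors deposited 1 table of RSEM expected counts, not normalized, with a column per library and 24054 rows of gene symbols. Per the submitters' processing notes, which give neither roles nor sequence, the tools were RSEM 1.3.0, HISAT2 2.0.5, CASAVA 1.8.4 and DESeq2 1.18.1, and the build was mm10. Left ventricle was flash-frozen and libraries were made from 500 ng of total RNA with a stranded total RNA kit, per the labels' protocols; 27 rows with a date in place of a symbol were named nowhere. The expected counts were rounded, filtered with filterByExpr to 14135 genes, TMM-scaled and fitted in 1 quasi-likelihood model of all 21 libraries with no covariate (edgeR 4.0.16, limma 3.58.1, R 4.3.3), with Benjamini-Hochberg adjustment over all genes tested and calls at an adjusted p under 0.05. Standard errors and 95% intervals are those of the log2 fold change. Only called genes are said to rise or fall. Log2 CPM for correlations used a prior count of 2. DESeq2 1.42.0 was an alternative. Scripts were tested on simulated counts. Replicates are animals with separate ear tags. Coordinates and exon lengths come from GENCODE M21 (GRCm38), in which all 38 symbols matched. The members, lists, pairs and tests were chosen with earlier results of these data known. Per-library values were given by rule for members called in any comparison and for Mki67, Top2a, Cdk1, Ccna2, Ccnb1, Mcm2, Pcna, Ccnd1, Ccnd2 and Ccne1; Kif23 and Nusap1 were added after their values were seen. Same-numbered libraries of different groups did not deviate together in every pair of any comparison (correlations from -0.225 to 0.564), so numbers were not taken as pairs.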

Additional observations from a re-analysis of the deposited data

Results flagged for a closer look

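In 56 sets of 1 gene in 1 group, 5 held a library far from the others of its group. The sets share libraries and are not independent, and a chance rate was not worked out for them. Cenpf in TAC+PDE9A-I library 6 was at 96.5 CPM, and the other 5 libraries of the group ran from 11.7 to 29.9 CPM. In sham library 5, Mki67 was at 24.8 CPM (the others 8.66 to 10.8 CPM), Top2a at 12.6 CPM (4.86 to 6.17 CPM) and Ccna2 at 3.95 CPM (1.33 to 1.82 CPM), 3 genes that vary together. In sham library 3, Mcm2 was at 7.89 CPM, and the other sham libraries ran from 10.6 to 11.5 CPM.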

How the results depend on the processing

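The number of called members kept within 1.5 times in TAC against sham except with the leading digit of the ear tag as a term (2, Cenpa and Cenpf) and when 1 library was left out (1 to 7, the lowest without TAC library 4 and the highest without TAC library 2). Calls over all genes moved too, to 19% of genes with the ear tag term, 1781 genes without TAC library 4 and 4440 without TAC library 2. In TAC+PDE5A-I against sham the number of called members was 0 with the ear tag term, 13 with only the 2 groups and 7 with DESeq2. When 1 library was left out it was 0 to 9, with 580 to 2274 genes called in all. Cenpf was -1.67 in that comparison with the ear tag term and -2.04 to -1.59 when 1 library was left out. With the replicate number as a block, 2 members (Cenpf and E2f1) were called in TAC+PDE9A-I against sham. There 15.9% of all genes were called, beside 3.82% without the block. Cenpf was -1.79 in that comparison, and it turned to 0.021 in TAC+PDE5A-I against TAC+PDE9A-I. This block gives TAC+PDE9A-I library 6, the only library with that number, a term of its own, and the numbers do not pair the samples. The block kept all 4 calls of TAC against sham and added E2f1 there and in TAC+PDE5A-I against sham (27.6% and 18.2% of all genes called). Leaving out 1 library at a time gave 0 to 2 called members in TAC+PDE9A-I against sham, with 21 to 1814 genes called in all. Cenpf ran from -1.85 to -0.84 there, and from -0.98 to 0.032 in TAC+PDE5A-I against TAC+PDE9A-I. Both ends at 0.032 and -1.85 were without TAC+PDE9A-I library 6. Cenpf in TAC against sham stayed called under every alternative run. Without TAC+PDE9A-I libraries 1 and 4 (highest Rn45s share, an alternative chosen after the data were seen) no call of a member changed. DESeq2 size factors and fits without robust estimation changed none of these calls. The median of all genes stayed within 0.013 of 0 in every alternative run. The median of the 37 members without Cenpf moved more: from 0.094 to 0.38 in TAC against sham, 0.22 to 0.53 in TAC+PDE5A-I against TAC and -0.19 to 0.064 in TAC+PDE9A-I against TAC. It ran from 0.21 to 0.66 in TAC+PDE5A-I against TAC+PDE9A-I, 0.55 to 0.85 in TAC+PDE5A-I against sham and -0.0050 to 0.39 in TAC+PDE9A-I against sham. Other than where a library's removal is itself the setting, the cause of a change was not tested. Genes near 1 CPM, such as Aurka and Plk1, rest on few counts, and dose, sex and cell composition were not measured here.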
